A study of Arabidopsis thaliana with 6 samples.

Results

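The genes described here are 49 nuclear genes of Arabidopsis thaliana whose transcripts read lower with each week in rosette leaves, in plants of 2 genotypes. Each is represented by a probe set that the platform annotation gives to exactly 1 nuclear gene. A probe set was taken when its log2 value was lower at 6 than at 5 weeks and lower at 7 than at 6 weeks in both genotypes, and when 7 minus 5 weeks was at most -1, a difference of at least 2-fold, in both. Plastid and mitochondrial genes were left out. The 49 probe sets, 1 per gene, were chosen from 13421 with 1 nuclear gene (0.365%), out of 22746 on the array. The values that chose them are the levels at the 3 ages, so these levels are given as a description, with no test.

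The plants were mlo2 mlo6 mlo12 triple mutants, called the mutant here, and wild type (WT). MLO genes encode membrane proteins, and loss of the 3 named genes makes Arabidopsis leaves resistant to powdery mildew fungi. Mature rosette leaves were taken 5, 6 or 7 weeks after the seed was sown, under conditions described only as normal, with 1 Affymetrix array for each genotype and age and 6 arrays in all. The mutant alleles, the number of plants per array and the hour or day of collection are not known from the sources used here. No array has a replicate of the same genotype and age, and whatever the arrays of an age share in handling cannot be told apart from leaf age.

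A mature rosette leaf has finished most of its growth, and its later life is known as a time in which investment in chloroplast maintenance, wall remodelling and new membrane declines before nutrients are withdrawn in senescence. Nuclear genes supply most chloroplast proteins, including the enzymes that make tetrapyrroles, the ring compounds from which chlorophyll and heme are built. Fewer cells of a type and less RNA per cell cannot be told apart in whole-leaf samples.

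The arrays were alike in distribution, with medians of 3.80 to 3.87 on the log2 scale. Correlations with the other arrays averaged 0.970 for the 6-week WT array and 0.975 to 0.982 for the rest. Controls differed with age too. For 25S ribosomal RNA the control value was 6.59, 5.39 and 5.70 in the mutant and 7.51, 4.08 and 3.87 in WT at 5, 6 and 7 weeks. The mean of the 27 poly-A spike-in control probe sets was 3.997, 4.22 and 4.55 in the mutant and 3.83, 4.85 and 4.88 in WT. Their part in the results below was not tested. Of the 14 leaf markers, 3 could be measured with a probe set of their own: RCA, PRK and SBPASE, proteins of carbon fixation, read 9.69 to 12.7 on all arrays. The 3 senescence markers of 6 that could be measured, WRKY53, WRKY6 and SAG29, had a summed level (log2 of the sum of linear values) of 6.15, 7.58 and 8.13 in the mutant and 6.62, 6.67 and 6.70 in WT at 5, 6 and 7 weeks, and their part in the results was not tested either. Markers of other cells and tissues that could be measured were dim: the guard cell lineage genes FAMA and MUTE read 2.85 to 4.06, the meristem gene CLV3 read 2.41 to 2.84, the pollen gene AGL104 2.31 to 2.64 and the cell division gene AUR1 2.80 to 3.09. Epidermal, vascular, flower, root and seed markers had no such probe set, and neither had MLO2, MLO6 and MLO12, so the genotype labels could not be checked through the targeted genes.

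At 5 weeks the 49 genes were well above the middle of the array. The choice of genes favours this, and the counts by level below, since a probe set near the low end of the scale has little room to fall. At that age the levels of the 49 genes ran over 4.85 to 10.29 in the mutant, with a median of 7.02. In WT they ran over 4.40 to 10.14, with a median of 6.72. At 6 weeks the medians were 6.05 in the mutant and 5.77 in WT, and at 7 weeks 5.28 in the mutant and 5.10 in WT. None was below its array's median at 5 weeks, while 8 were at 7 weeks in the mutant and 8 in WT. The number above the 75th percentile of the array was 38, 25 and 16 in the mutant and 32, 23 and 14 in WT at 5, 6 and 7 weeks. The difference of 7 minus 5 weeks had a median of -1.62 in the mutant, with a lowest value of -4.80, and a median of -1.46 in WT, with a lowest value of -3.47. Averaged over genotypes, 6 genes were at or below -2 and 27 at or below -1.5.

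**Figure D1:**
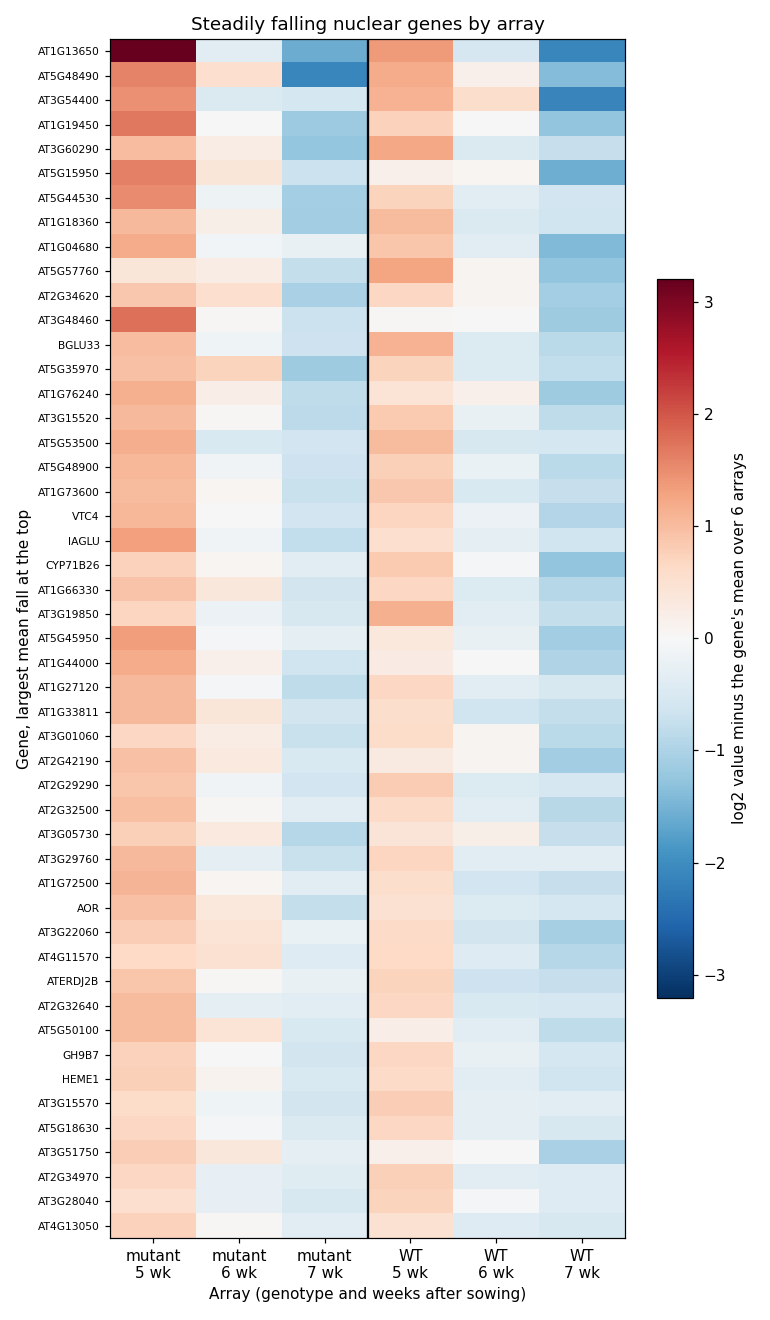
Log2 value of each of the 49 genes on the 6 arrays, as the difference from that gene's mean over the arrays (colour), with mutant arrays on the left and WT arrays on the right and the largest mean fall at the top. Red at 5 weeks gives way to blue at 7 weeks in both genotypes, as the choice of genes requires, and the 6-week columns differ in depth from gene to gene.

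Only 8 of the 49 genes carry a symbol in the annotation, and the other 41 carry a locus ID alone, so no role is given for them. HEME1, VTC4, AOR, IAGLU, GH9B7 and ATERDJ2B belong to tetrapyrrole and vitamin synthesis, detoxification, hormone and wall metabolism and protein folding. For BGLU33 and CYP71B26 only the enzyme family is given. HEME1, a uroporphyrinogen III decarboxylase on the common path to heme and chlorophyll, read 7.93, 7.27 and 6.66 in the mutant and 7.78, 6.82 and 6.51 in WT at 5, 6 and 7 weeks. Its 7 minus 5 week differences were -1.27 in the mutant and -1.26 in WT, almost the same in the 2 genotypes. VTC4, a phosphatase that acts in the synthesis of ascorbate (vitamin C) and of myo-inositol, read 7.79, 6.73 and 6.11 in the mutant and 7.41, 6.55 and 5.79 in WT at 5, 6 and 7 weeks. At 7 weeks its level was 3.19-fold lower in the mutant and 3.07-fold lower in WT than at 5 weeks. AOR, a reductase that detoxifies the reactive carbonyls formed from oxidised lipids, read 9.30, 8.71 and 7.60 in the mutant and 8.86, 7.93 and 7.81 in WT at 5, 6 and 7 weeks. For AOR the WT array was already near its lowest value at 6 weeks while the mutant array was not.

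Next are IAGLU and GH9B7, of hormone and wall metabolism, and then the remaining genes with a symbol. IAGLU, a glucosyltransferase that joins the auxin indole-3-acetic acid to glucose, read 5.54, 4.13 and 3.44 in the mutant and 4.76, 3.93 and 3.58 in WT at 5, 6 and 7 weeks. Its difference of 7 minus 5 weeks was -2.10 in the mutant and -1.18 in WT, and the mutant started from the higher level and ended at the lower one. GH9B7, a glycosyl hydrolase of the family that holds plant endoglucanases, read 7.65, 6.93 and 6.32 in the mutant and 7.56, 6.66 and 6.35 in WT at 5, 6 and 7 weeks. BGLU33, a beta-glucosidase, read 5.01, 3.90 and 3.37 in the mutant and 5.13, 3.596 and 3.16 in WT at 5, 6 and 7 weeks, which left it below the array median at 7 weeks in both genotypes. CYP71B26, a cytochrome P450 mono-oxygenase, read 7.83, 7.14 and 6.71 in the mutant and 7.91, 7.05 and 5.81 in WT at 5, 6 and 7 weeks, with its larger fall in WT. ATERDJ2B, a J-domain co-chaperone of the endoplasmic reticulum, read 5.94, 5.09 and 4.82 in the mutant and 5.77, 4.40 and 4.32 in WT at 5, 6 and 7 weeks. For ATERDJ2B the mutant was above WT at every age and the WT difference was -0.08 for 7 minus 6 weeks.

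**Figure D2:**
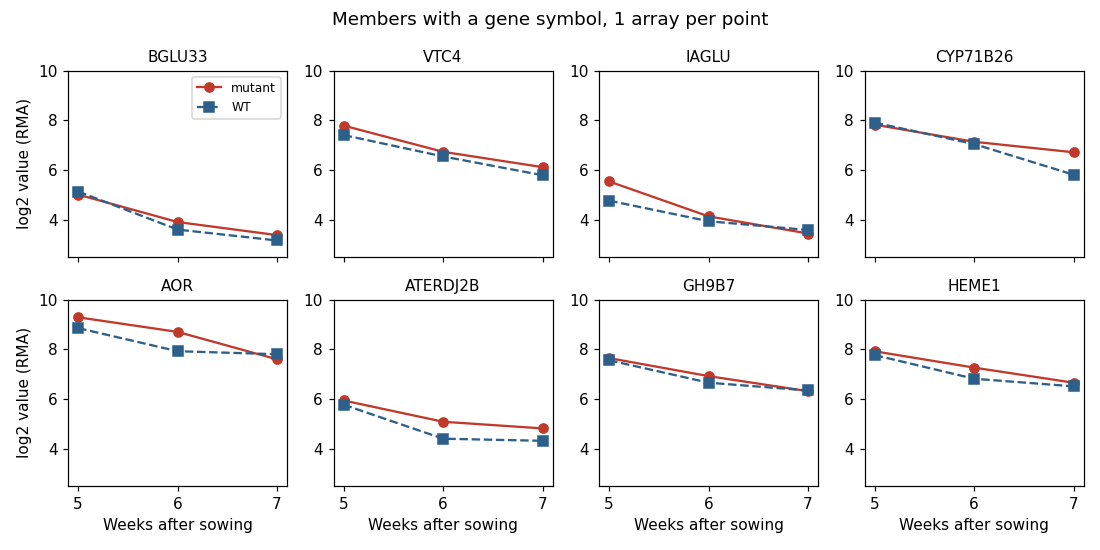
Log2 value (vertical) against plant age in weeks (horizontal) for the 8 genes with a symbol, each point 1 array, mutant as circles with solid lines and WT as squares with dashed lines. HEME1, VTC4 and GH9B7 run close together in the 2 genotypes, whereas CYP71B26 separates at 7 weeks and AOR at 6 weeks.

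The largest difference with age belonged to AT1G13650, which read 7.92, 4.35 and 3.13 in the mutant and 6.08, 4.17 and 2.62 in WT at 5, 6 and 7 weeks. At 7 weeks its level was 27.8-fold lower in the mutant and 11.1-fold lower in WT than at 5 weeks. AT5G48490 read 8.22, 7.19 and 4.54 in the mutant and 7.83, 6.80 and 5.24 in WT at 5, 6 and 7 weeks, and at 7 weeks was 12.9-fold lower in the mutant and 6.01-fold lower in WT than at 5 weeks. AT1G13650 ended below its array's median in both genotypes, whereas AT5G48490 stayed above it. AT3G54400 read 7.04, 5.10 and 5.02 in the mutant and 6.68, 6.14 and 3.45 in WT at 5, 6 and 7 weeks. AT1G19450 read 8.69, 6.96 and 5.82 in the mutant and 7.72, 7.01 and 5.71 in WT at 5, 6 and 7 weeks. For both of these genes the mutant array had more of its fall behind it at 6 weeks than the WT array. The shares were 96.1% in the mutant and 16.6% in WT for AT3G54400. For AT1G19450 they were 60.2% in the mutant and 35.7% in WT. Also among the 6 largest were AT3G60290, with differences of 7 minus 5 weeks of -2.24 in the mutant and -1.99 in WT, and AT5G15950, with -2.32 in the mutant and -1.73 in WT. The next 7 locus-only genes by mean fall, AT5G44530, AT1G18360, AT1G04680, AT5G57760, AT2G34620, AT3G48460 and AT5G35970, had means over the genotypes between -1.97 and -1.80. AT1G76240, AT3G15520, AT5G53500, AT5G48900 and AT1G73600 followed at -1.78 to -1.66.

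The genes of highest mean level over the 6 arrays also read high at 7 weeks, which a choice by that mean favours. AT1G73600, the brightest, read 10.29, 9.33 and 8.56 in the mutant and 10.14, 8.79 and 8.55 in WT at 5, 6 and 7 weeks. AT5G35970 read 9.37, 9.14 and 7.27 in the mutant and 9.13, 7.96 and 7.62 in WT at 5, 6 and 7 weeks. AOR, AT3G05730 and AT4G11570 were the next brightest, and at 7 weeks these 5 genes still read 7.27 to 8.56 in the mutant and 7.23 to 8.55 in WT. Near the threshold, the genes just inside were AT4G13050, at -1.09 in the mutant and -1.004 in WT, AT3G22060, at -1.01 in the mutant and -1.67 in WT, and AT5G50100, at -1.52 in the mutant and -1.04 in WT. Just outside were AT1G51805, at -0.97 in the mutant and -1.53 in WT, AT1G56720, at -0.97 in the mutant and -1.03 in WT, and ATMAP65-6, a microtubule-associated protein, at -0.96 in the mutant and -1.23 in WT. The values run on without a gap across the threshold, so these genes form a range and not a separate class.

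The time course within the 2 weeks varied from gene to gene. The step from 5 to 6 weeks was the larger one for 32 genes in the mutant, with a median of -0.91 against -0.69 for the later step, and for 34 genes in WT, with medians of -1.002 and -0.45. The share of the log2 fall reached by 6 weeks had a median of 60.2% in the mutant and 68.6% in WT, and was larger in the mutant for 17 genes and larger in WT for 32. Each of these shares rests on 1 array per genotype at 6 weeks. The 6-week WT array had the lowest mean correlation with the others (0.970), and its part in the shares was not tested. The 6-week values also helped to choose the genes. No background share is given for these counts, so they are a description and nothing is read from them. The fall required in each genotype favours the next count, which has no background share, and nothing is read from it. All 49 genes had both 5-week arrays above both 7-week arrays. For 43 of them both 5-week arrays were above all 4 later arrays, a property of 13.4% of all nuclear probe sets with 1 gene, and 1 that the choice of genes favours.

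In 25 genes over 50% of the fall came by 6 weeks in both genotypes. Among the fullest early changes was that of AT5G53500, with 92.6% in the mutant and 96.0% in WT, and its arrays read 6.64, 4.99 and 4.85 in the mutant and 6.50, 4.97 and 4.91 in WT at 5, 6 and 7 weeks. AT2G32640 was alike, with 93.9% in the mutant and 95.4% in WT. HEME1, VTC4, BGLU33, IAGLU, GH9B7 and ATERDJ2B were in this set too, so 6 of the 8 genes with a symbol had most of their fall before 6 weeks in both genotypes. In 8 genes the share was under 50% in both. AT5G48490 was the largest of them, with 28.1% in the mutant and 39.7% in WT, and AT2G34620, with 17.1% in the mutant and 32.8% in WT, read 8.15, 7.82 and 6.25 in the mutant and 7.94, 7.37 and 6.18 in WT at 5, 6 and 7 weeks. AT3G01060, AT3G05730, AT5G57760, AT1G76240, AT2G42190 and AT3G51750 were the others. Their readings at 6 weeks stayed closer to the 5-week than to the 7-week array.

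The other 16 genes lay on different sides of 50% in the 2 genotypes. Over 50% of the fall came by 6 weeks in the mutant alone for 7, among them AT3G48460 (70.5% in the mutant and 3.14% in WT), AT5G15950 (52.8% in the mutant and 6.33% in WT) and CYP71B26 (62.0% in the mutant and 41.1% in WT). It came by 6 weeks in WT alone for 9, among them AT5G35970 (11.0% in the mutant and 77.2% in WT), AT4G11570 (14.6% in the mutant and 66.9% in WT) and AOR (34.7% in the mutant and 88.5% in WT).

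**Figure D3:**
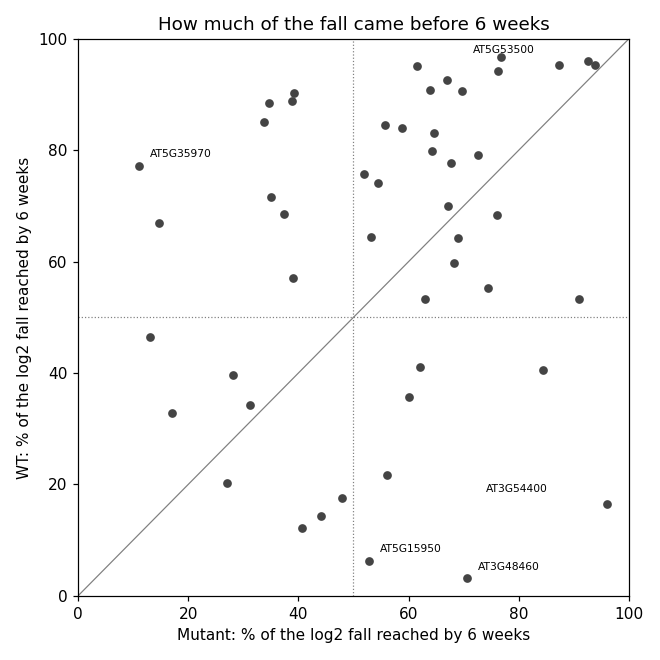
Share of the log2 difference between 5 and 7 weeks that was reached by 6 weeks, in the mutant (horizontal) and in WT (vertical), 1 point per gene, with the diagonal of equal shares and dotted lines at 50%. The upper right corner holds 25 genes and the lower left corner 8, and 32 of the 49 points lie above the diagonal.

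The fall differed in size between the mutant and WT by under 0.5 on the log2 scale for 29 of 49 and by at least 1 for 6. The fall was the larger one in the mutant for 33 genes and in WT for 16, where 50% of all probe sets had the lower 7 minus 5 week difference in the mutant. Since the choice of genes used both differences, nothing is read from these counts. AT5G57760 differed most. It read 5.42, 5.27 and 4.26 in the mutant and 6.3002, 5.12 and 3.76 in WT at 5, 6 and 7 weeks, so that the mutant was the lower genotype at 5 weeks and the higher at 7 weeks. AT1G13650 and AT5G44530 went the other way, with larger falls in the mutant: AT5G44530 read 6.19, 4.51 and 3.58 in the mutant and 5.39, 4.33 and 4.06 in WT at 5, 6 and 7 weeks. AT3G48460 read 6.14, 4.41 and 3.69 in the mutant and 4.40, 4.36 and 3.22 in WT at 5, 6 and 7 weeks, and its 2 genotypes were far apart at 5 weeks and close at 6 weeks. AT3G54400 was the fifth, with -2.02 in the mutant and -3.23 in WT. No test was made of these differences, which rest on 1 array per genotype and age.

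The mean difference between mutant and WT was not a condition of the choice, and it was tested. The test is not free of the choice, however. Its error is the spread of mutant minus WT over the 3 ages, and the genes were chosen for a fall in both genotypes. How far this changes the p-values, and the counts by p below, was not tested. Most of the genes read higher in mutant than in WT leaves, by amounts that did not pass the test. The limma estimate of mutant minus WT, averaged over the 3 ages, was above 0 for 42 of 49 genes (43.7% of all probe sets were above 0), with a median of 0.28 and a range of -0.16 to 0.89. The median over all probe sets was -0.03. However, no gene passed an adjusted p of 0.05 over the 22746 probe sets in limma (0% of all passed). At an unadjusted p under 0.05, 12 of the 49 were higher in the mutant (3.93% of all probe sets were) and 0 were lower (2.59% of all). That count was 4 when either 7-week array was left out, 6 without variance moderation and 0 without an age term.

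The background depends on which probe sets are taken. Among the 11373 probe sets with a mean at or above the median of all, 54.5% were above 0, with a median of 0.028, and 6.88% were higher and 3.87% lower in the mutant at an unadjusted p under 0.05. Higher at all 3 ages were 16.6% of these and lower at all 3 ages 11.6%. Among the 437 other nuclear probe sets that read lower at each step in both genotypes, but by less than the threshold, 50.3% were above 0, with a median of 0.0031, and 7.09% were higher and 1.6% lower at that p. Of them 24.9% were higher at all 3 ages and 24% lower. No test was made of the difference between the 49 genes and these sets.

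By age, the mutant was above WT for 41 of the 49 genes at 5 weeks (46.6% of all probe sets were), for 46 at 6 weeks (46.8%) and for 33 at 7 weeks (46%). The median differences were 0.29, 0.26 and 0.17 at 5, 6 and 7 weeks. Single genes ran over -0.88 to 1.84 at 5 weeks, -1.05 to 1.17 at 6 weeks and -0.71 to 1.57 at 7 weeks. At all 3 ages 26 genes were higher in the mutant (12.2% of all probe sets) and 1, AT3G28040, was lower (16.7%). At 5 weeks 3 genes were at least 2-fold higher in the mutant (0.875% of all probe sets), 3 at 6 weeks (2.96%) and 2 at 7 weeks (1.43%).

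**Figure D4:**
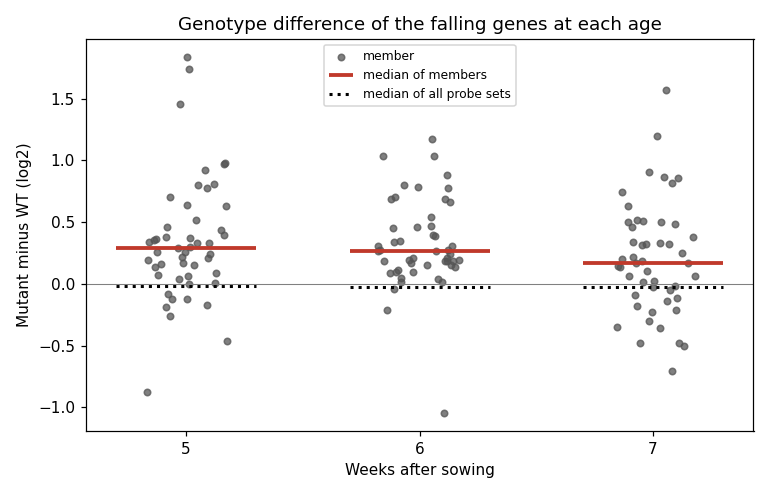
Difference between mutant and WT in log2 value (vertical) for each of the 49 genes at 5, 6 and 7 weeks (horizontal, plant age, points spread sideways for sight), with the median of the genes as a solid red line and the median of all probe sets as a dotted black line. The medians of the genes, 0.29, 0.26 and 0.17, lie above 0 at each age, and 46 of the 49 points at 6 weeks are above 0 against 33 at 7 weeks.

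The smallest p-values among the genes higher in the mutant were those of AT3G51750, AT1G72500, AT5G50100, AT2G32500 and AT5G15950. AT3G51750 read 5.83, 5.39 and 4.75 in the mutant and 5.19, 5.04 and 4.002 in WT at 5, 6 and 7 weeks. Its genotype estimate was 0.58 ± 0.13 (SE, log2, 3 arrays of different age per genotype), with an adjusted p of 0.690 in limma. The mutant was above WT at all 3 ages for this gene. AT1G72500 read 6.38, 5.36 and 4.92 in the mutant and 5.86, 4.66 and 4.53 in WT at 5, 6 and 7 weeks, with an estimate of 0.53 ± 0.12. AT5G50100 read 6.62, 6.03 and 5.11 in the mutant and 5.82, 5.23 and 4.79 in WT at 5, 6 and 7 weeks, with an estimate of 0.64 ± 0.15. At 6 weeks the mutant was above WT by 0.70 for AT1G72500 and by 0.80 for AT5G50100. AT2G32500 read 6.63, 5.70 and 5.28 in the mutant and 6.27, 5.30 and 4.76 in WT at 5, 6 and 7 weeks, with an estimate of 0.43 ± 0.11. AT5G15950 had the largest estimate of all 49, 0.89 ± 0.23, with differences of 1.45, 0.34 and 0.87 at 5, 6 and 7 weeks. The adjusted p-values of these 5 in limma were 0.690 to 0.718, and a choice by smallest p favours genes whose difference is alike at the 3 ages.

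Of the 7 genes with an estimate below 0, AT3G28040 was the lowest at -0.16 ± 0.10, with an adjusted p of 0.806 in limma. It read 6.97, 6.17 and 5.92 in the mutant and 7.14, 6.38 and 6.03 in WT at 5, 6 and 7 weeks, and mutant minus WT was -0.17, -0.21 and -0.11 at 5, 6 and 7 weeks. AT3G15570 followed at -0.08 ± 0.13, AT5G57760 at -0.08 ± 0.29, AT3G60290 at -0.02 ± 0.26 and AT3G19850 at -0.01 ± 0.18. The SE of each of these 4 exceeded the estimate, and the estimates of AT5G57760, AT3G60290 and AT3G19850 turned above 0 when a 5-week array was left out, to 0.33, 0.091 and 0.22. Among the genes with a symbol, ATERDJ2B was at 0.45 ± 0.14, AOR at 0.34 ± 0.21, CYP71B26 at 0.30 ± 0.22, VTC4 at 0.30 ± 0.11, IAGLU at 0.28 ± 0.20, HEME1 at 0.25 ± 0.12, BGLU33 at 0.13 ± 0.13 and GH9B7 at 0.11 ± 0.12. All 8 estimates were above 0, and the mutant was above WT at every age for ATERDJ2B, VTC4 and HEME1.

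HEME1 was the only measured gene of the 19 pathway lists among the 49. The lists were drawn up with earlier results of these data known. They have 1385 entries, but only 151 of their genes had a probe set with 1 gene. The rule took 0.365% of nuclear probe sets with 1 gene, so few list genes could be among the 49. Absence of these pathways is not read from this count. The list of chlorophyll and tetrapyrrole synthesis had 9 measured genes. Of these, 4 read lower at each step in both genotypes (3.62% of nuclear probe sets with 1 gene did), and 7 were lower at 7 than at 5 weeks in both (32.2%). The 4 were HEMB1, HEME1, HEME2 and CHLM. HEME2, the second uroporphyrinogen III decarboxylase, read 9.03, 8.68 and 8.52 in the mutant and 9.04, 8.56 and 8.44 in WT at 5, 6 and 7 weeks, a fall smaller than that of HEME1 in both genotypes. CHLM, the methyltransferase that follows magnesium insertion on the chlorophyll branch, read 10.14, 9.66 and 9.17 in the mutant and 10.11, 9.77 and 9.41 in WT at 5, 6 and 7 weeks, just short of the threshold in the mutant. HEMB1, which acts early on the common path, differed by -0.07 in the mutant and -0.12 in WT.

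The remaining genes of that list broke the order at 6 weeks or showed little difference. CHLI2, a magnesium chelatase subunit, read 7.57, 7.28 and 6.81 in the mutant and 7.49, 6.21 and 6.64 in WT at 5, 6 and 7 weeks. PORB, a protochlorophyllide oxidoreductase, read 10.82, 10.58 and 10.17 in the mutant and 11.44, 10.24 and 10.31 in WT at 5, 6 and 7 weeks. For both, the 6-week WT array was lower than the 7-week WT array. LIL3:1, a light-harvesting-like protein of chlorophyll synthesis, differed by -0.74 in the mutant and -0.48 in WT, GSA1, an aminomutase at the start of the path, by -0.35 in the mutant and 0.03 in WT, and HEMA2, a glutamyl-tRNA reductase, by 0.16 in the mutant and -0.27 in WT. No gene of the list passed the adjusted threshold for genotype.

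**Figure D5:**
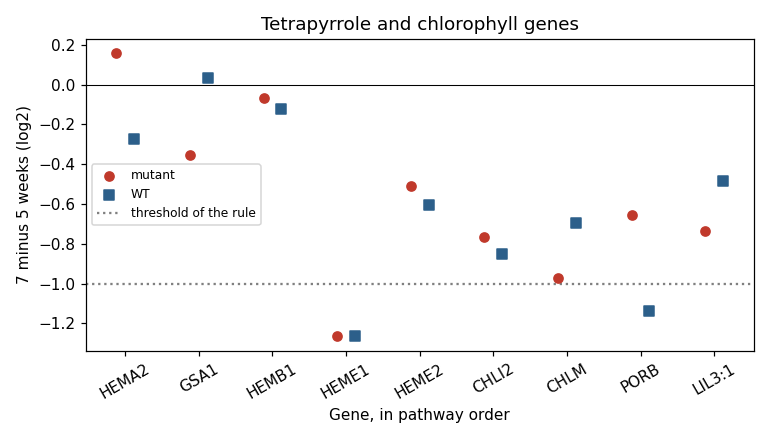
Difference of 7 minus 5 weeks in log2 value (vertical) for the 9 measured genes of the tetrapyrrole and chlorophyll list (horizontal, from the start of the path on the left, with the auxiliary protein LIL3:1 last), mutant as circles and WT as squares. HEME1 alone lies below the dotted line at -1 in both genotypes, at -1.27 in the mutant and -1.26 in WT.

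The counts of the other lists stand beside shares of 32.2% of nuclear probe sets with 1 gene that were lower at 7 than at 5 weeks in both genotypes and 3.62% that were lower at each step. No list was tested against them, and with so few genes a count of 0 lower at each step is near the background. Nuclear photosynthesis, with 8 genes measured of 59 entries, had 8 of 8 lower at 7 than at 5 weeks in both genotypes. Of these, 1 was lower at each step, and the median of the mean difference was -0.25. The differences went from -0.015 in the mutant and -0.035 in WT for PSBW to -0.70 in the mutant and -0.33 in WT for LHCB4.3. The share of 32.2% covers probe sets of all levels, and no share is given for probe sets as bright as these. Nuclear genes of plastid gene expression and biogenesis had 5 of 5 lower in both and 1 lower at each step. Of the measured genes, 1 of 16 defence and senescence genes, 0 of 5 clock and light genes and 1 of 11 auxin genes were lower at 7 weeks in both. The measured genes of the cell wall list (11 of 24 lower in both) and of the cell cycle, histones and cytoskeleton list (7 of 18) included 0 lower at each step in both genotypes. GH9B7 is not among those 24, and some of them were dim, such as XTH19 with a mean level of 2.28. The count of 0 therefore holds for the listed genes alone. Lower at 7 weeks in both were also 3 of 3 Calvin cycle genes, 6 of 11 flavonoid and phenylpropanoid genes, 6 of 14 sugar and starch genes, 3 of 6 genes of nitrogen and sulfur assimilation, 3 of 5 aquaporin and ion transport genes, 2 of 7 genes of brassinosteroid, gibberellin and cytokinin, 1 of 6 glucosinolate genes, 1 of 3 lipid and cuticle genes and 1 of 2 carotenoid genes, each list with 0 lower at each step. The lists of the cytosolic ribosome and the MLO family had 0 measured genes. In limma 0 of the 151 measured list genes passed the adjusted threshold for genotype (0% of all probe sets did). At an unadjusted p under 0.05, 13 of them were higher in the mutant (3.93% of all) and 6 lower (2.59% of all). The 49 genes lay on all 5 chromosomes, with 13, 7, 15, 4 and 10 on chromosomes 1 to 5. No 2 of them were adjacent among protein-coding genes, and AT3G15520 and AT3G15570, were 6 genes apart.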

How the data were processed

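Data of 6 arrays of rosette leaves were used as the authors deposited them: log2 values from RMA, a method that gives 1 summary per probe set over all arrays, per the submitters' processing notes. Its version is not given in the sources used here. That the scale is log2 follows from the range, 1.72 to 13.43. The number of arrays limits the precision. Genes came from the platform annotation: of 22746 probe sets without controls, 13513 had 1 gene, 503 had several and 8730 were not listed there. Symbols were checked against RefSeq TAIR10.1.

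The age pattern chose the genes and was not tested. Mutant minus WT was fitted with limma 3.58.1 (R 4.3.3) on 6 arrays with age as a factor (2 residual degrees of freedom) and Benjamini-Hochberg adjustment over all 22746. Whether arrays came from separate plantings is not known. The p-values measure only how far mutant minus WT varied over the 3 ages on these arrays, and not the spread between plants of a group. The fit was also run on simulated data with independent normal noise, whose spread was that of each probe set after variance moderation. It called 43 of 50 probe sets changed by 1 on the log2 scale and 50 of 50 changed by 2, with 17 false calls. Whether the real arrays have such noise was not tested. On the real arrays 0 probe sets passed, with estimates of up to 2.51. The simulated counts therefore do not show what the real fit could call, and 0 calls is not read as absence of genotype differences.

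The genes, the 19 lists and the rules were chosen with earlier results of these data known. Named genes are the 20 largest mean falls, list genes, the 5 smallest p in each direction, 3 on each side of the threshold, the 5 highest levels, the 5 largest differences between falls and those with a symbol. From the lists 7 symbols were left out because they matched a different gene or were ambiguous. Alternatives were array scaling, dim probe sets, thresholds, the variance model, the age term and arrays left out. Promoter motifs and protein lengths were not analysed here.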

Additional observations from a re-analysis of the deposited data

How the results depend on the processing

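The fit for genotype pairs each mutant array with the WT array of its age. The labels give no replicate numbers, so no further block was fitted. The number of genes meeting the conditions was 83 with a fall of at most -0.8, 17 with at most -1.5 and 122 with no condition on the 6-week arrays. It was 40 with equal medians, all among the 49, and 49 after a second quantile normalization, of which 42 were among the original 49. Leaving out dim probe sets, or those whose ID marks possible cross-hybridisation, removed 0 of the 49. In limma 0 genes passed the adjusted threshold for genotype under any alternative, and among the 10 genes named by smallest p the lowest adjusted p was 0.312. The 12 genes higher in the mutant at an unadjusted p under 0.05 became 6 without variance moderation, 0 without the age term and 4 to 15 when 1 array was left out, with 4 without either 7-week array. The 0 lower genes became 1 without variance moderation, 1 without both 6-week arrays and 0 to 1 when 1 array was left out. The 7 estimates below 0 became 11 without both 6-week arrays and 6 to 11 when 1 array was left out. The median estimate over the genes was 0.211 to 0.348 when 1 array was left out. Of 130 values for those 10 genes, 122 kept direction and side of the threshold. The other 8 changed sign when 1 array was left out: AT5G57760 ran over -0.36 to 0.33 and AT3G19850 over -0.14 to 0.22, highest without a 5-week array, and AT3G60290 over -0.38 to 0.21, with 0.091 without a 5-week and 0.21 without a 7-week array. Leaving out 1 array also removes its age from the comparison, so either array of an age gives the same estimate. The 8 changes of sign therefore come in pairs, and leaving out both 6-week arrays repeats the estimate without 1 of them. The variance model, the age term and leaving out dim probe sets do not alter the estimate. Many of the 122 values thus could not change direction. Chosen after seeing the data, the count of genes higher in the mutant at all 3 ages, 26, was 26 with equal medians, 21 after quantile normalization and 28 at 5 and 7 weeks alone. With 1 array per genotype and age, the spread between plants of a group was not measured.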

Other observations

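Besides the 49 genes, 73 nuclear probe sets with 1 gene were lower by at least 2-fold at 7 than at 5 weeks in both genotypes but did not read lower at each step. The order was broken in the mutant for 27 and in WT for 58, including 12 broken in both. In WT the 6-week array was at or below the 7-week array for 48 of them, and in the mutant for 25. The 6-week WT array is the 1 with the lowest mean correlation with the others, and its part in these counts was not tested. LYC, lycopene cyclase of carotenoid synthesis, read 7.39, 6.45 and 5.96 in the mutant and 7.36, 5.44 and 5.89 in WT at 5, 6 and 7 weeks. CRR21, a chloroplast RNA editing factor, read 5.37, 3.34 and 3.55 in the mutant and 5.06, 2.77 and 3.27 in WT at 5, 6 and 7 weeks. Without regard to annotation, 131 probe sets met all the conditions, of which 16 belonged to an organelle gene and 66 had no listed gene or several genes.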
